A study of Mus musculus with 20 samples.

Results

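Endothelial cells line the blood and lymph vessels, and the lung, with its dense capillary bed, is rich in them. The 38 genes described here are known markers and regulators of that lining, and they were measured in libraries made from eosinophils, granulocytes of the blood and tissues. The genes were taken from a fixed list of symbols, each matched to its Ensembl identifier, and make up 38 of the 49315 genes in the deposited count tables. All of them were found. Each library came from eosinophils sorted by flow cytometry from the pooled lungs of 3 to 5 mice. One group was C57BL/6 mice that carried a transplanted Balb/c lung, taken at day 7 after transplantation and titled as having had no costimulatory blockade, a treatment that withholds accessory signals from T cells (day 7 grafts, n = 5 pools). Their treatment field names none either, but the growth protocol, shared by all samples, mentions transplants only with blockade, so its absence rests on those 2 labels. The other was the resting lung of C57BL/6 mice that received no treatment (n = 5 pools). Eosinophils in grafts are described by the labels as recipient cells. Of 20 labelled samples, 5 in each of 4 groups, the grafts given costimulatory blockade were not analysed here. The 2 groups also differ in the strain of the lung tissue and in the count table that holds them, and these differences cannot be told apart from that of transplantation.

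Vascular endothelium is held together by junction proteins and survives on signals from VEGF and angiopoietin receptors. Its identity is maintained by transcription factors of the ETS and SOXF families, and its exchange functions rest on caveolae, lipid-handling proteins and vasoactive receptors. In the lung the capillaries hold large, thin aerocytes, which face the gas exchange surface and carry Car4, Ednrb and Apln, and general capillary cells, which carry Gpihbp1 and Aplnr.

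The libraries held 15695074 to 26683784 counts in the day 7 grafts and 6666577 to 12883144 counts in resting lung. A floor of 3 counts was worth 0.118 to 0.198 CPM (counts scaled to a common library size) in the day 7 grafts and 0.222 to 0.406 CPM in resting lung, which covers counting error only. Eosinophil markers were present in both groups. Siglecf, an eosinophil lectin, averaged 222 ± 70.2 CPM in the day 7 grafts and 148 ± 34.5 CPM in resting lung, and Ccr3, the eotaxin receptor, averaged 443 ± 254 CPM in the day 7 grafts and 356 ± 141 CPM in resting lung (SD, n = 5 pools each). Granule protein genes of the same list were lower in the day 7 grafts: Prg2, the major basic protein, averaged 81.5 ± 52.7 CPM in the day 7 grafts and 463 ± 186 CPM in resting lung (log2 fold change -2.51, adjusted p 0.000303), and Epx and Prg3 had log2 fold changes of -3.75 and -2.81. The summed eosinophil markers ran from 804 to 2884 CPM in the day 7 grafts and from 1201 to 2458 CPM in resting lung, while those of monocytes and macrophages ran from 3737 to 6640.0 CPM in the day 7 grafts and from 1284 to 1818 CPM in resting lung. Summed neutrophil markers ran from 4186 to 8053 CPM in the day 7 grafts and from 6940 to 10445 CPM in resting lung. They lay above the eosinophil sum in every library.

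Every endothelial gene on the list was lower in the day 7 grafts. Of 38 genes, 38 were lower and 0 were higher (edgeR's quasi-likelihood test with Benjamini-Hochberg adjustment over 16500 genes, highest adjusted p of the 38 0.00193), against 23.4% of all tested genes called lower and 23.3% called higher. With DESeq2 or without adjustment the number higher was also 0. No endothelial gene overlapped between the groups, whereas 18.7% of all tested genes were lower without overlap. The median log2 fold change of the 38 genes was -4.82, that of all tested genes was 0.05, and the single genes ran from -8.16 for Tmem100 to -1.50 for Flt1. The filter on low counts asked for about 0.700 CPM in at least 5 libraries. All 38 genes reached it in each resting library and 24 reached it in each day 7 library, so 14 genes could enter the test through resting lung alone, and the count of 38 carries that choice. The libraries are of cells sorted as eosinophils, and how endothelial transcripts came to be in them was not tested. In bulk RNA a smaller number of endothelial cells and less RNA per endothelial cell cannot be told apart.

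Together the 38 genes held 0.0367 to 0.0518% of all counts in the day 7 grafts and 0.702 to 0.992% in resting lung. Their summed level was 481, 413, 542, 511 and 417 CPM in day 7 pools 1 to 5, against 9020.2, 6868, 7394, 8006 and 6703 CPM in resting pools 1 to 5. The day 7 sum was thus 6.22% of the resting sum, and the pools of each group stayed close to each other beside the distance between the groups. The genes did not keep the same share of their resting level. In the day 7 grafts 11 genes were under 2% of it, 13 lay between 2 and 5%, 6 between 5 and 10%, and 8 above 10%. The 8 were Car4, Acvrl1, S1pr1, Ednrb, Pecam1, Apln, Icam2 and Flt1. Car4 was there only with day 7 pool 5 and kept 6.93% without it, while Bmpr2, at 9.98%, lay just under the limit. A fall of at least 2 on the log2 scale, or 4-fold, was found for 37 of the 38 genes, against 10.1% of all tested genes, a fall of at least 5 for 18 genes and one of at least 7 for 2 genes, Tmem100 and Npr3.

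**Figure D1:**
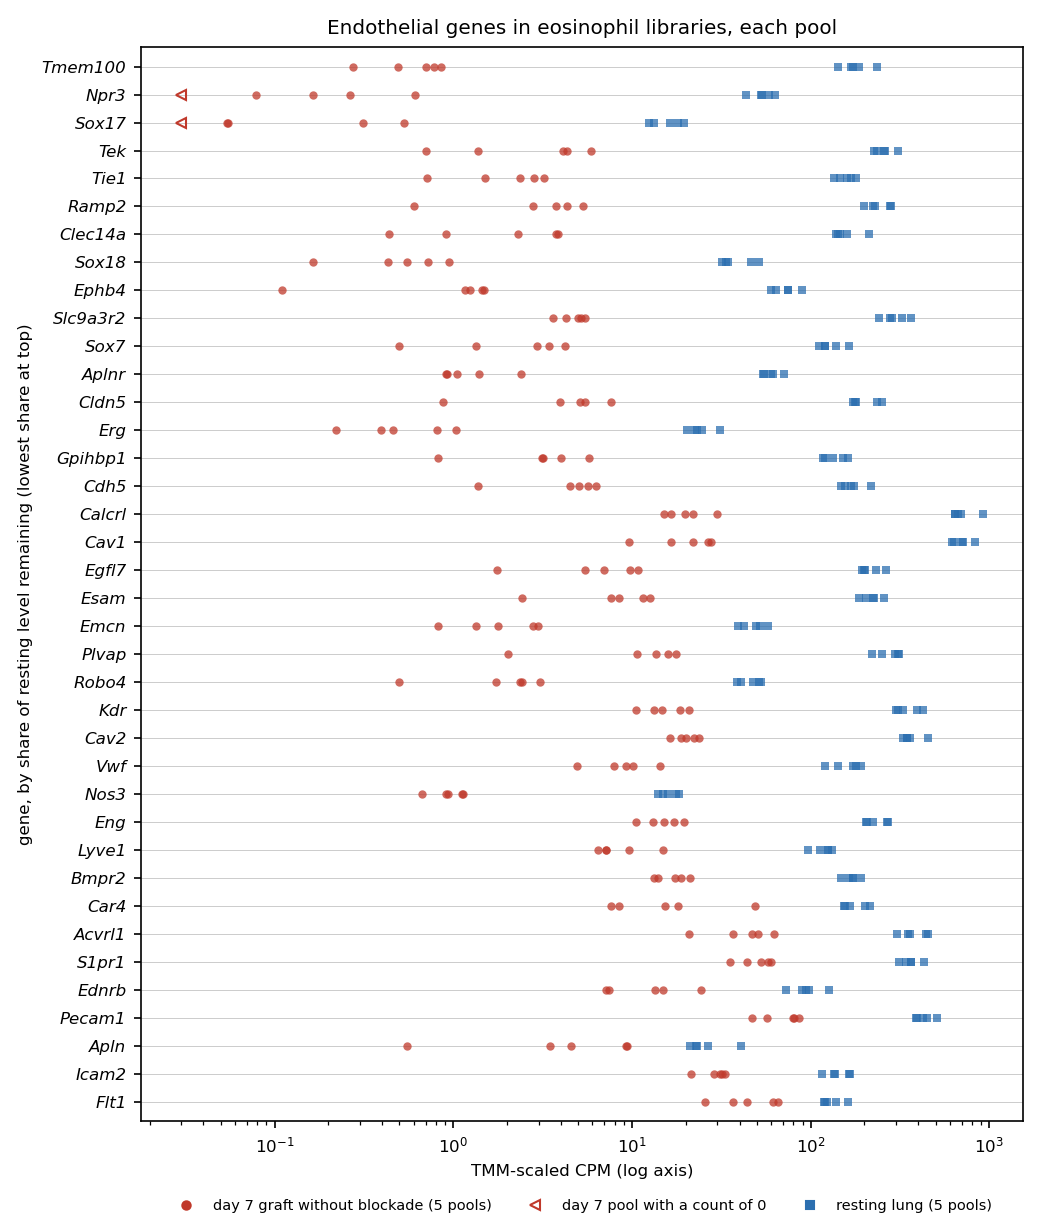
Level of each of the 38 endothelial genes (CPM, log axis) in the 5 day 7 graft pools and the 5 resting lung pools, with genes ordered by the share of the resting level that remained, a point for each pool and an open triangle for a day 7 pool with a count of 0. For every gene all day 7 points lie below all resting points, with the smallest distance at Flt1 and the largest at Tmem100.

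Kdr and Flt1 encode receptors for vascular endothelial growth factor, Tek encodes the receptor for angiopoietins, and Tie1 encodes its partner receptor. All 4 receptors were lower, with a median log2 fold change of -5.35. Flt1 kept more of its resting level than any other of the 38 genes, and Tek and Tie1 kept little. The promoters of the 4 genes are shown to give the receptors, which fell by unequal amounts, their sequence context. Which cells each transcript came from cannot be read from bulk libraries, and Flt1 is also known in monocytes and macrophages. Each sequence gives the 250 bases before the transcript start from RefSeq on build GRCm38.p6, 5′ to 3′ on the gene's strand. In GENCODE M21 the Tie1 gene begins at 118490061, inside its window, so most of that window lies within the gene as annotated there. Capitals mark matches to short core motifs of endothelial factor families, searched on both strands: AGGAAG for ETS factors and AACAAT for SOX factors.
Kdr, chr5:75978456-75978705, minus strand: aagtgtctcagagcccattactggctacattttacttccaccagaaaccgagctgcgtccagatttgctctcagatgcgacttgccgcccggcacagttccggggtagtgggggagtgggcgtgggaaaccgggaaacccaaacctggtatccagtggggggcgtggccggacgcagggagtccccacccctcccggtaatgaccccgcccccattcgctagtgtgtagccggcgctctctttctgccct
Flt1, chr5:147726012-147726261, minus strand: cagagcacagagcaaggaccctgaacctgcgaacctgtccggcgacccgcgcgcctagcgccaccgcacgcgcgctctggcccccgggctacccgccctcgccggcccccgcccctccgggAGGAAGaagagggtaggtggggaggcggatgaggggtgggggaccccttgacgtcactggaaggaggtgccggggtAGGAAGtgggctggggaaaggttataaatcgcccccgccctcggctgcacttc
Tie1, chr4:118489850-118490099, minus strand: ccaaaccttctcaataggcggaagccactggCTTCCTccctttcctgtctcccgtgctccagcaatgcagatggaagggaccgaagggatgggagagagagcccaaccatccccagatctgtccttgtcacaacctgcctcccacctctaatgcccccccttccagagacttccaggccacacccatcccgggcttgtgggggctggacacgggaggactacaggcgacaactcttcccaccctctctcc
Tek, chr4:94739039-94739288, plus strand: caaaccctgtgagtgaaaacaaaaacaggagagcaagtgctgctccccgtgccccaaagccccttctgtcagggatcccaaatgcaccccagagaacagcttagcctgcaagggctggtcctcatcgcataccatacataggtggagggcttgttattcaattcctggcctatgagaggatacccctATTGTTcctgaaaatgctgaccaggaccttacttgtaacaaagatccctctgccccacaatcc

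The Flt1 promoter held 2 ETS matches, that of Tie1 held 1 ETS match, that of Tek held 1 SOX match, and that of Kdr held neither. The promoter table covered 21 of the 38 genes with 27 promoters, and the other 17 genes had no entry in it. The ETS letters were found in 12 of the 27 promoters (44.4%), against 29.5% of all 32851 promoters in the table. For the SOX letters it was 4 of 27 (14.8%), against 9.42% of all, and for AGATAA, a core of GATA factors, 2 of 27 (7.41%), against 9.99% of all. A match to so few letters describes the window and is not a binding site.

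Kdr, the main signalling receptor for this growth factor, had 14.7, 13.4, 20.7, 18.7 and 10.6 CPM in day 7 pools 1 to 5, against 426, 329.6, 309, 393 and 301 CPM in resting pools 1 to 5. The log2 fold change was -4.49 ± 0.20 (SE, adjusted p 2.71e-09), and the lowest resting pool stood far above the highest day 7 pool. Flt1, which also binds the growth factor and limits its action on Kdr, had 61.4, 65.5, 44.3, 36.7 and 25.6 CPM in the day 7 pools and 138, 118, 123, 163 and 119.7 CPM in the resting pools. Its log2 fold change was -1.50 ± 0.22 (adjusted p 9.85e-05). The day 7 pools spread more widely for Flt1 than for Kdr, and Flt1 is the gene whose groups came nearest to each other. Tek had 4.33, 1.37, 4.12, 5.93 and 0.700 CPM in the day 7 pools, against 306, 236, 258, 259 and 225 CPM in the resting pools, a log2 fold change of -6.29 ± 0.45 (adjusted p 1.62e-07). Day 7 pools 2 and 5 were the low ones for Tek. Tie1 averaged 2.13 ± 1.02 CPM in the day 7 grafts and 157 ± 17.7 CPM in resting lung (SD, n = 5), which left 1.35% of the resting level.

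**Figure D2:**
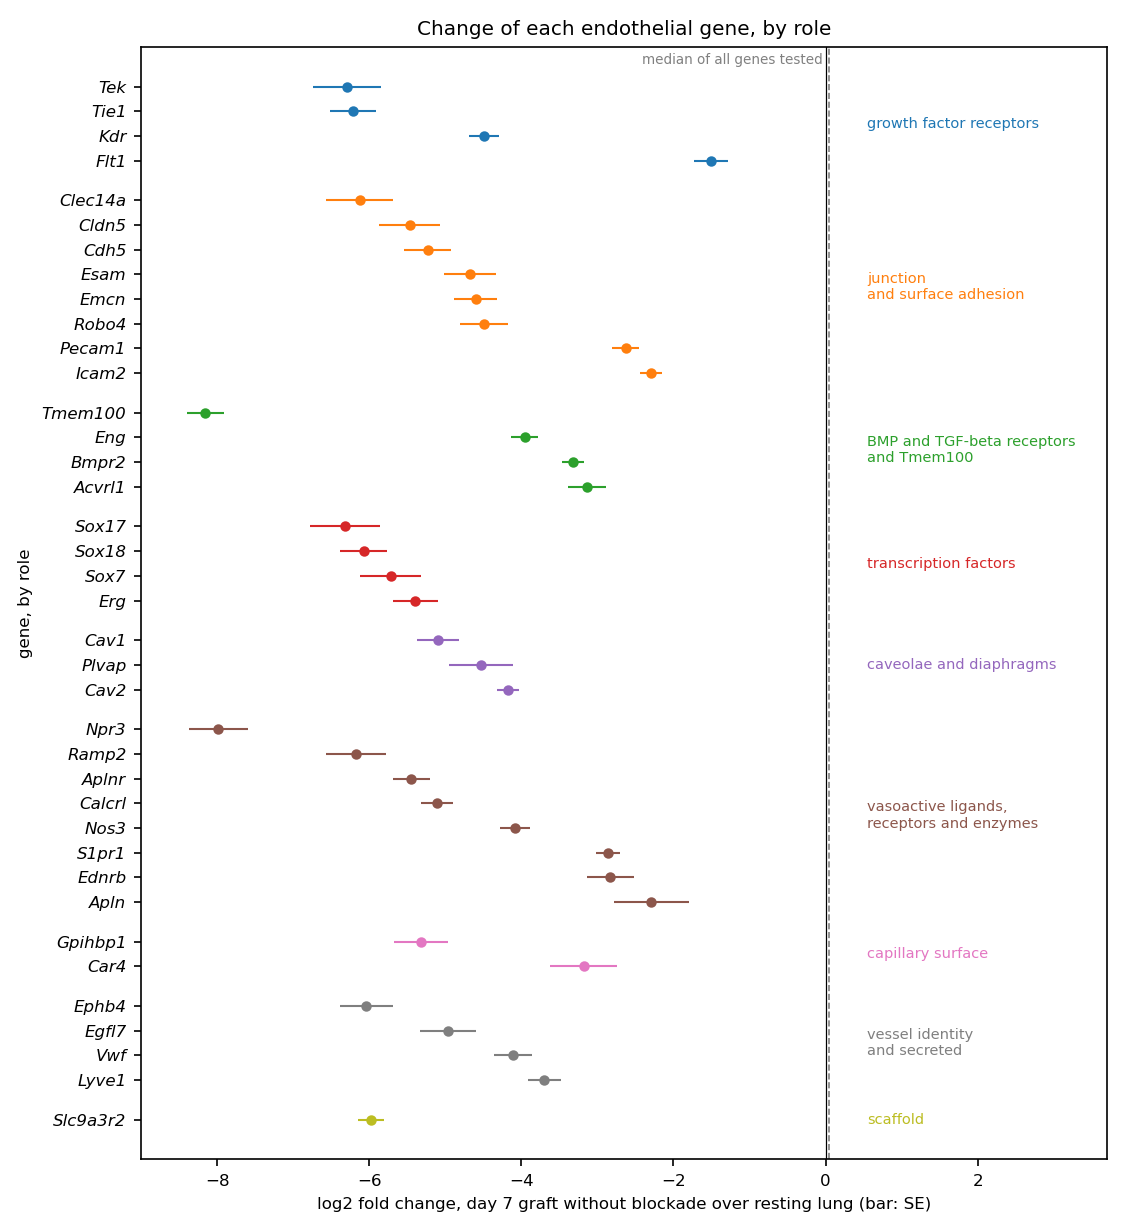
Log2 fold change of each endothelial gene, day 7 graft over resting lung, with its standard error, grouped by role. All 38 values lie below 0; transcription factors sit near -6, with a median of -5.90, and the BMP and TGF-beta receptors lie closer to 0, apart from Tmem100 at -8.16.

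The 8 genes of junctions and the cell surface were all lower (median -4.64). Cdh5, the vascular cadherin of adherens junctions (chromosome 8, 104101625 to 104144511 on mm10), had 5.06, 1.37, 5.65, 6.33 and 4.53 CPM in day 7 pools 1 to 5, against 216, 148, 168, 175 and 156 CPM in resting pools 1 to 5. Its log2 fold change was -5.23 ± 0.31 (adjusted p 3.76e-08), and day 7 pool 2 lay below the other 4 day 7 pools. Cldn5, the main claudin of endothelial tight junctions, had 5.12, 0.879, 5.45, 7.64 and 3.93 CPM in the day 7 pools and 236, 172, 179.6, 251 and 177 CPM in the resting pools. It fell by 5.47 ± 0.40 on the log2 scale (adjusted p 2.12e-07), again with day 7 pool 2 lowest. Icam2, a constitutive adhesion ligand for leukocyte integrins that is also present on blood cells, had 21.5, 33.2, 31.0, 31.9 and 28.6 CPM in the day 7 pools, against 166, 137, 134, 164 and 116 CPM in the resting pools. For Icam2 day 7 pool 2 was the highest of its group, and the log2 fold change was -2.29 ± 0.14 (adjusted p 3.46e-08).

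Pecam1, a platelet and endothelial adhesion molecule also carried by leukocytes, averaged 70.0 ± 17.0 CPM in the day 7 grafts and 433 ± 50.3 CPM in resting lung (log2 fold change -2.63). Icam2 and Pecam1 kept 20.4% and 16.2% of their resting levels. The other 6 junction and surface genes kept less than 5%. They include Esam, an adhesion molecule of tight junctions (3.89%), Emcn, a sialomucin of capillaries and veins (4.04%), Clec14a, a lectin of the endothelial surface (1.41%), and Robo4, an endothelial roundabout receptor (4.38%).

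Eng, Acvrl1 and Bmpr2 encode a co-receptor and receptors for bone morphogenetic proteins, and mutations in each cause vascular disease in people. Tmem100 is a membrane protein induced by Acvrl1 signalling in mouse endothelium. Acvrl1 had 50.4, 62.4, 46.9, 36.8 and 20.9 CPM in day 7 pools 1 to 5, against 444, 349.9, 358, 454 and 306 CPM in resting pools 1 to 5. Its log2 fold change was -3.14 ± 0.25 (adjusted p 4.28e-07), with day 7 pool 5 lowest and pool 2 highest in the grafts. Tmem100 (chromosome 11, 90030348 to 90036508) had 0.488, 0.275, 0.784, 0.857 and 0.700 CPM in the day 7 pools, against 235, 186, 168, 173 and 142 CPM in the resting pools. It thus kept 0.343% of its resting level where Acvrl1 kept 11.4%, and its log2 fold change of -8.16 ± 0.25 (adjusted p 2.34e-10) was the largest fall among the 38 genes. Bmpr2 averaged 16.9 ± 3.29 CPM in the day 7 grafts and 169 ± 15.7 CPM in resting lung, while Eng kept 6.44% of its resting level. Among 6 other target genes of this pathway, 4 were lower, 1 was higher and 1 did not pass. Id3, a helix-loop-helix inhibitor, averaged 22.8 ± 9.22 CPM in the day 7 grafts and 155 ± 25.6 CPM in resting lung, whereas Id2, of the same family, averaged 407 ± 57.2 CPM in the day 7 grafts and 280 ± 74.3 CPM in resting lung (log2 fold changes -2.76 and 0.54, adjusted p 1.77e-06 and 0.0261).

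The 4 transcription factors of the list fell together, with a summed level of 0.934 to 5.79 CPM in the day 7 grafts and 179 to 258 CPM in resting lung. Sox7, Sox17 and Sox18 form the SOXF family of vascular development, and Erg is an ETS factor that keeps endothelial genes active. Sox7 had 4.20, 0.495, 2.94, 3.43 and 1.35 CPM in day 7 pools 1 to 5, against 163, 112, 138, 119.8 and 119.7 CPM in resting pools 1 to 5 (log2 fold change -5.72 ± 0.40, adjusted p 1.32e-07). Sox17, a factor of arterial endothelium, had 0, 0.0549, 0.314, 0.527 and 0.0539 CPM in the day 7 pools, against 18.0, 12.4, 16.3, 19.5 and 13.3 CPM in the resting pools (log2 fold change -6.32 ± 0.46, adjusted p 1.57e-07). In day 7 pools 1, 2 and 5 Sox17 was under the 3-count floor, so its fold change rests on few counts. Sox18 had 0.548, 0.165, 0.941, 0.725 and 0.431 CPM in the day 7 pools, against 46.2, 31.9, 33.6, 51.3 and 34.5 CPM in the resting pools (log2 fold change -6.08 ± 0.30, adjusted p 5.18e-09). For Sox7 and Sox18, day 7 pool 2 was the lowest, and no resting pool came near any day 7 pool. Erg averaged 0.583 ± 0.331 CPM in the day 7 grafts and 24.4 ± 4.15 CPM in resting lung, or 2.39% of the resting level.

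Caveolae are flask-shaped pits of the endothelial membrane, built on Cav1 with Cav2, and Plvap forms the diaphragms that close them and the fenestrae. Cav1 had 21.9, 9.62, 27.8, 26.5 and 16.5 CPM in day 7 pools 1 to 5, against 829.7, 637, 705, 714 and 619.6 CPM in resting pools 1 to 5. It fell by 5.10 ± 0.27 on the log2 scale (adjusted p 1.1e-08). Cav1 was the most abundant of the 38 genes per length in resting lung, at a mean of 204 RPKM (CPM per kilobase of annotated exon), and stood 8th in the day 7 grafts at 5.94 RPKM. Plvap had 13.7, 2.03, 15.9, 17.7 and 10.7 CPM in the day 7 pools, against 297, 219, 310.1, 308 and 250.4 CPM in the resting pools (log2 fold change -4.53 ± 0.42, adjusted p 1.9e-06). Day 7 pool 2 was again the lowest for both genes. Cav2, which lies beside Cav1 on chromosome 6, averaged 20.3 ± 2.89 CPM in the day 7 grafts and 367 ± 49.2 CPM in resting lung.

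Among vasoactive genes the falls were uneven. Calcrl and Ramp2 encode the paired subunits of the adrenomedullin receptor, which guards endothelial integrity. Calcrl had 30.0, 15.1, 19.9, 21.8 and 16.5 CPM in day 7 pools 1 to 5, against 918, 696, 669, 641 and 639 CPM in resting pools 1 to 5 (log2 fold change -5.11 ± 0.21, adjusted p 1.94e-09). Ramp2 averaged 3.36 ± 1.79 CPM in the day 7 grafts and 242 ± 36.0 CPM in resting lung (log2 fold change -6.17). Npr3, the clearance receptor for natriuretic peptides, had 0.609, 0.165, 0.0784, 0.264 and 0 CPM in the day 7 pools, against 58.6, 52.5, 62.9, 53.4 and 43.7 CPM in the resting pools. Its log2 fold change was -7.98 ± 0.38 (adjusted p 5.18e-09) and became -8.74 without day 7 pool 1, the only day 7 pool well above the floor. Nos3, the endothelial nitric oxide synthase, averaged 0.953 ± 0.190 CPM in the day 7 grafts and 16.1 ± 1.81 CPM in resting lung.

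S1pr1, a sphingosine 1-phosphate receptor of endothelium that lymphocytes also use to leave tissues, had 52.5, 35.4, 58.0, 59.7 and 44.0 CPM in day 7 pools 1 to 5, against 429, 313, 362, 366 and 341 CPM in resting pools 1 to 5 (log2 fold change -2.86 ± 0.16, adjusted p 1.28e-08). Apln encodes the peptide apelin and Aplnr its receptor. Apln had 9.38, 0.549, 9.22, 3.49 and 4.58 CPM in the day 7 pools, against 40.8, 26.5, 21.1, 22.7 and 23.0 CPM in the resting pools. The log2 fold change of Apln was -2.29 ± 0.49 (adjusted p 0.00193), the widest error among the 38 genes, and the day 7 pools ran over a broad range with pool 2 far below the rest. The receptor Aplnr kept less: 1.34 ± 0.623 CPM in the day 7 grafts against 60.3 ± 6.76 CPM in resting lung (log2 fold change -5.45). Ednrb, the endothelin B receptor, averaged 13.4 ± 7.02 CPM in the day 7 grafts and 95.8 ± 19.3 CPM in resting lung (log2 fold change -2.83).

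Car4, a carbonic anhydrase anchored to the capillary surface, had 7.62, 8.46, 15.2, 18.1 and 48.7 CPM in day 7 pools 1 to 5, against 214, 154, 165, 202 and 155 CPM in resting pools 1 to 5. The log2 fold change was -3.18 ± 0.44 (adjusted p 6.32e-05) and became -3.84 without day 7 pool 5, which stood alone above the other day 7 pools. Gpihbp1, which carries lipoprotein lipase across capillary cells, had 3.17, 0.824, 5.76, 4.02 and 3.12 CPM in the day 7 pools, against 163, 120.2, 134, 151 and 118 CPM in the resting pools (log2 fold change -5.32 ± 0.35, adjusted p 9.15e-08). The aerocyte genes Ednrb and Apln kept over 10% of their resting level, as did Car4 only with day 7 pool 5, and the general capillary genes Gpihbp1 and Aplnr kept under 3%. Other genes of both cell types were spread widely. The 5 other aerocyte genes were all lower (median -4.93), from Prx at 0.688% and Fibin at 0.768% of resting to Chst1 at 13.6%. The 5 other general capillary genes were all lower too (median -4.02), from Sema3c at 1.31% and Hpgd at 3.75% to Kit at 20.5% and Cd93 at 30.5%.

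Egfl7, a secreted endothelial protein, had 5.48, 1.76, 9.76, 10.8 and 6.95 CPM in day 7 pools 1 to 5, against 231, 193, 198, 265 and 202 CPM in resting pools 1 to 5 (log2 fold change -4.96 ± 0.37, adjusted p 2.6e-07). The exons of Egfl7 overlap those of Agpat2 on the opposite strand, and whether the counting used strand is not stated. Exons of Eng, Acvrl1, Sox17, Nos3 and Ephb4 also overlap those of another gene, and those of Ramp2 overlap Vps25 on the same strand, so reads of these genes could be assigned to a neighbour. Lyve1, a hyaluronan receptor of lymphatic endothelium and of some tissue macrophages, had 9.63, 6.48, 14.8, 7.18 and 7.17 CPM in the day 7 pools, against 132, 96.7, 124, 125 and 113 CPM in the resting pools (log2 fold change -3.70 ± 0.22, adjusted p 2.73e-08). Day 7 pool 2 was the lowest of its group for both genes, and no pool overlapped. Vwf, the von Willebrand factor of larger vessels and platelets, averaged 9.32 ± 3.44 CPM in the day 7 grafts and 161 ± 29.3 CPM in resting lung, and Ephb4, a marker of veins, averaged 1.09 ± 0.565 CPM in the day 7 grafts and 72.6 ± 11.7 CPM in resting lung. Slc9a3r2, a scaffold protein of the cell cortex, had 3.60, 4.29, 5.02, 5.47 and 5.17 CPM in the day 7 pools, against 323, 284, 277, 366 and 241 CPM in the resting pools (log2 fold change -5.98 ± 0.17, adjusted p 2.34e-10). Its day 7 pools lay close together.

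The order of the genes by level per length differed between the groups. In the day 7 grafts S1pr1 led with a mean of 16.4 RPKM, followed by Icam2 with 15.4, Pecam1 with 11.2, Acvrl1 with 10.2 and Car4 with 9.97. In resting lung Cav1 led with 204 RPKM, followed by Calcrl with 146, Cldn5 with 143, Plvap with 139 and S1pr1 with 119. S1pr1 alone held 13.4% of the summed RPKM of the 38 genes in the day 7 grafts, whereas the leading gene of resting lung, Cav1, held 9.43%. Exon lengths are the union of annotated exons, so these levels depend on that annotation.

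To compare the genes with each other, each was also set against Cdh5 in the same library, in a fit whose offset is the Cdh5 count. If all 38 genes had fallen alike, these differences would be 0. Of the other 37 genes, 15 were higher relative to Cdh5 in the day 7 grafts, 4 were lower and 18 did not pass (edgeR's quasi-likelihood test with Benjamini-Hochberg adjustment over all tested genes), where 96.6% of all tested genes were higher and 0.388% lower. With nearly all tested genes passing, the adjustment changed p-values little, so calls near the threshold are close to unadjusted ones. Flt1 had a mean over pools of 1583 counts for every 100 of Cdh5 in the day 7 grafts and 77.4 in resting lung (log2 difference 4.33 ± 0.57, adjusted p 5.83e-14). The ratios were 1214, 4768, 784, 580 and 567 in day 7 pools 1 to 5, so pool 2 raised that mean. Its ratio rests on 25 Cdh5 counts. Pecam1, Icam2, S1pr1, Acvrl1, Ednrb, Apln, Car4, Bmpr2, Eng, Vwf, Lyve1, Nos3, Cav2 and Kdr were also higher relative to Cdh5. Tmem100 had a mean of 14.5 counts per 100 of Cdh5 in the day 7 grafts and 105 in resting lung (log2 difference -2.91 ± 0.58, adjusted p 4.96e-07), and Npr3 was lower as well (-2.67 ± 0.64, adjusted p 3.49e-05). Tek and Ramp2 passed narrowly (-1.05 and -1.02, adjusted p 0.0442 and 0.0486), as did Kdr in the other direction (1.05, adjusted p 0.0386). Cldn5, Cav1, Calcrl, Plvap, Esam, Egfl7, Gpihbp1 and the transcription factors were among the 18 that did not pass. A missed threshold does not show that they kept pace with Cdh5, since the standard error was near 0.5 for most genes. Cdh5 set against itself also had a standard error of 0.51, so these errors carry scatter that all genes share through the Cdh5 counts. The p-values are therefore not separate evidence for each gene.

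Day 7 pool 2, with the lowest Cdh5 level, weighed on this comparison. Without it, Flt1 was higher relative to Cdh5 by 3.34, Icam2 by 2.65, Ednrb by 1.86, Acvrl1 by 1.69, Bmpr2 by 1.64, Eng by 0.92 and Vwf by 0.67, and each kept its call. The number of genes lower relative to Cdh5 was 10 without that pool, 2 without day 7 pool 1, 2 without any single resting pool and 2 with no filter or with Tie1, or Cdh5, Tie1, Tek and Robo4 together, as denominator, where Tek and Ramp2 lost their calls. Npr3 changed to -3.42 relative to Cdh5 without day 7 pool 1.

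**Figure D3:**
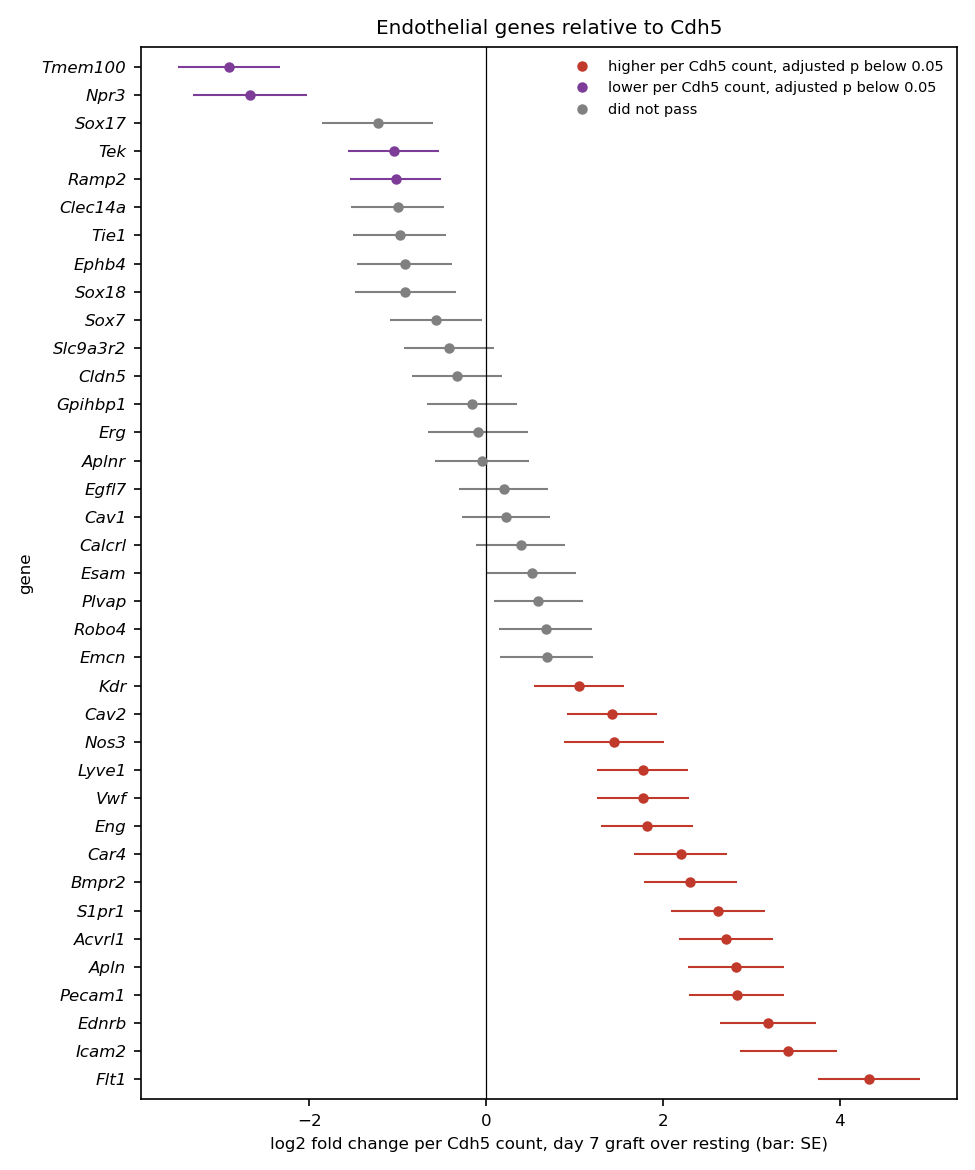
Log2 difference, day 7 graft minus resting lung, of each endothelial gene relative to Cdh5 in the same library, with its standard error; 0 means that a gene changed as much as Cdh5. Flt1 lies highest at 4.33 and Tmem100 lowest at -2.91, with 15 genes higher, 4 lower and 18 that did not pass between them.

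Day 7 pools differed among themselves more than resting pools did. The coefficient of variation of an endothelial gene had a median of 47.1% in the day 7 grafts and 14.7% in resting lung, where all tested genes had medians of 22.8% in the day 7 grafts and 19.2% in resting lung. Counting error weighs more at low levels, and Sox17 and Npr3 had only 18 and 19 counts over all day 7 pools together. The comparison with all tested genes was not matched for level. Day 7 pool 2 held the lowest level for 22 of the 38 genes, against 22.1% of all tested genes. It held the highest level for 6, namely Flt1, Icam2, Eng, Acvrl1, Ednrb and Vwf, a smaller share than the 21.7% of all tested genes. The same pool had the highest summed monocyte and macrophage markers of the day 7 grafts, 6640.0 CPM against 3737 to 4924 CPM in the others, and the lowest summed alveolar type 2 markers, at 54.6 CPM, and fibroblast markers, at 123 CPM. Their part in the result was not tested. In resting lung, pool 1 was the highest for 27 of the 38 genes and the lowest for 0, against 22.7% and 18.8% of all tested genes. It had the lowest summed eosinophil markers of that group.

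**Figure D4:**
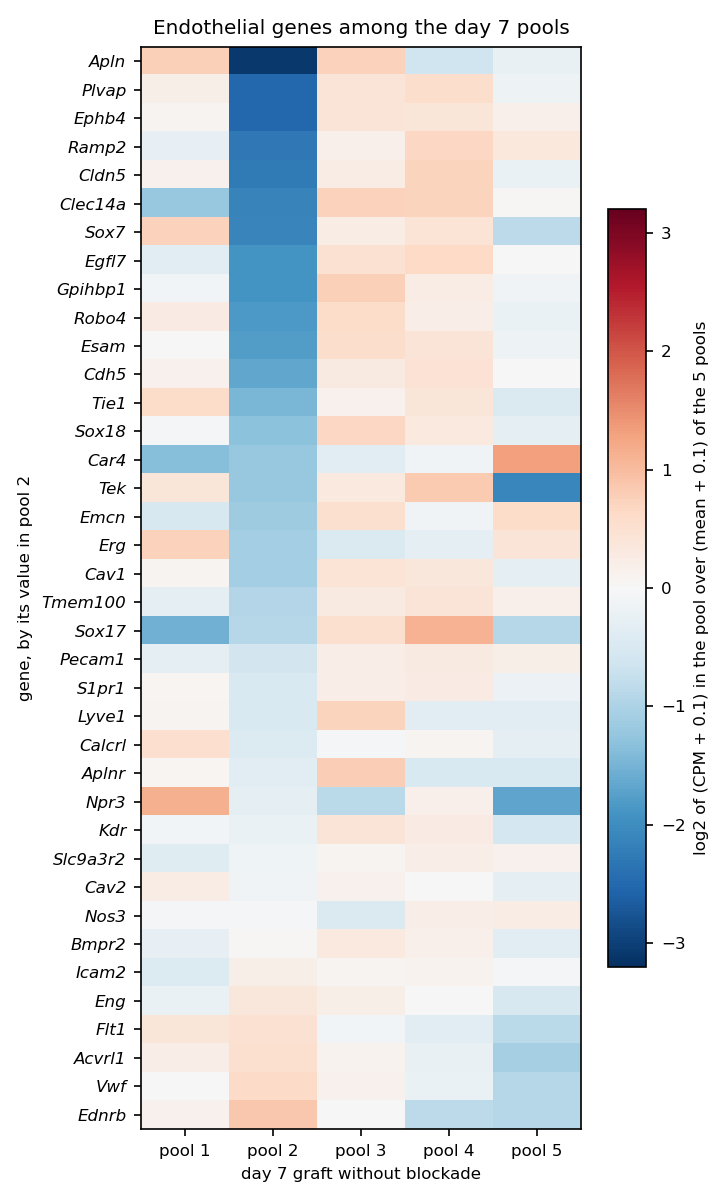
Level of each endothelial gene in each day 7 graft pool relative to the mean of the 5 day 7 pools, on the log2 scale after adding 0.1 CPM, as a colour map with pools across and genes ordered by their value in pool 2. Pool 2 is the lowest pool for 22 genes that include Cdh5, Cldn5 and Plvap, and the highest pool for Flt1, Icam2, Eng, Acvrl1, Ednrb and Vwf. Among all tested genes it was the lowest for 22.1% and the highest for 21.7%.

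Further endothelial genes, taken from lists of the same vessels, moved with the 38. Of 20 other pan-endothelial genes 19 were lower and 1 was higher (median log2 fold change -4.91). Adgrf5, an adhesion receptor of lung endothelium and epithelium, averaged 13.6 ± 6.89 CPM in the day 7 grafts and 925 ± 83.6 CPM in resting lung. Procr, the protein C receptor of endothelium and some blood cells, was the exception, at 49.2 ± 17.7 CPM in the day 7 grafts and 2.53 ± 1.52 CPM in resting lung (log2 fold change 4.26, adjusted p 1.97e-06). All 6 tested artery genes were lower (median -3.71), 3 of 4 vein genes were lower and 1 did not pass, and of 5 tested lymphatic genes 4 were lower and 1, Pdpn, was higher. Of 7 tested Notch pathway genes 5 were lower, 1 was higher and 1 did not pass. Dll4, the Notch ligand of arterial and tip cells, averaged 2.77 ± 1.71 CPM in the day 7 grafts and 38.8 ± 8.07 CPM in resting lung.

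Genes that inflamed endothelium switches on did not all share this direction. Of the 4 tested, Icam1, an integrin ligand that leukocytes also carry, was higher (916 ± 466 CPM in the day 7 grafts, 434 ± 30.4 CPM in resting lung, log2 fold change 1.08, adjusted p 0.00321). Sele, the E-selectin of activated endothelium, was lower (3.30 ± 1.27 CPM in the day 7 grafts, 12.5 ± 5.09 CPM in resting lung, log2 fold change -1.93, adjusted p 0.000161). Vcam1 and Selp did not pass, with log2 fold changes of -0.09 ± 0.19 and -0.08 ± 0.16.

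The ligands of the receptors split. Of 14 tested, 7 were lower and the other 7 did not pass. Angpt1, the activating ligand of Tek, averaged 0.537 ± 0.178 CPM in the day 7 grafts and 26.9 ± 5.57 CPM in resting lung (log2 fold change -5.59, adjusted p 2.59e-09), and Bmp6 and Bmp4, ligands of the bone morphogenetic protein receptors, changed by -6.02 and -4.33. Vegfa, the ligand of Kdr and Flt1, averaged 476 ± 128 CPM in the day 7 grafts and 386 ± 80.7 CPM in resting lung and did not pass (log2 fold change 0.30 ± 0.21, adjusted p 0.259). Tgfb1 averaged 212 ± 18.1 CPM in the day 7 grafts and 192 ± 18.0 CPM in resting lung and did not pass either (0.14 ± 0.11, adjusted p 0.307).

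Markers of other cells moved in the same libraries, some with the endothelial genes and some against them. Of 5 red cell markers 5 were lower, with a summed level of 46.0 to 104 CPM in the day 7 grafts and 1233 to 1864 CPM in resting lung. All 4 alveolar type 1 markers, all 5 alveolar type 2 markers, all 4 airway markers, all 6 tested smooth muscle and pericyte markers and all 7 platelet markers were lower. The summed alveolar type 1 markers ran from 41.4 to 61.1 CPM in the day 7 grafts and from 483 to 784 CPM in resting lung, and those of platelets ran from 56.1 to 79.0 CPM in the day 7 grafts and from 229 to 409 CPM in resting lung. Of 7 fibroblast markers 3 were lower and 1 was higher, and the same counts held for 7 eosinophil markers. All 4 B cell markers, 2 of 6 neutrophil markers and 2 of 3 mesothelial markers were lower. In the other direction, 7 of 8 monocyte and macrophage markers and 6 of 6 T cell markers were higher, the T cell sum running from 199.6 to 539 CPM in the day 7 grafts and from 43.7 to 63.9 CPM in resting lung. No marker of these lists was at 0 in every library of a group. As a share of resting lung, the day 7 sums were 6.22% for the 38 endothelial genes, 4.67% for red cells, 7.97% for alveolar type 1, 10.7% for alveolar type 2, 86.8% for eosinophils and 284% for monocytes and macrophages. The part of these cells in the endothelial result was not tested.

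**Figure D5:**
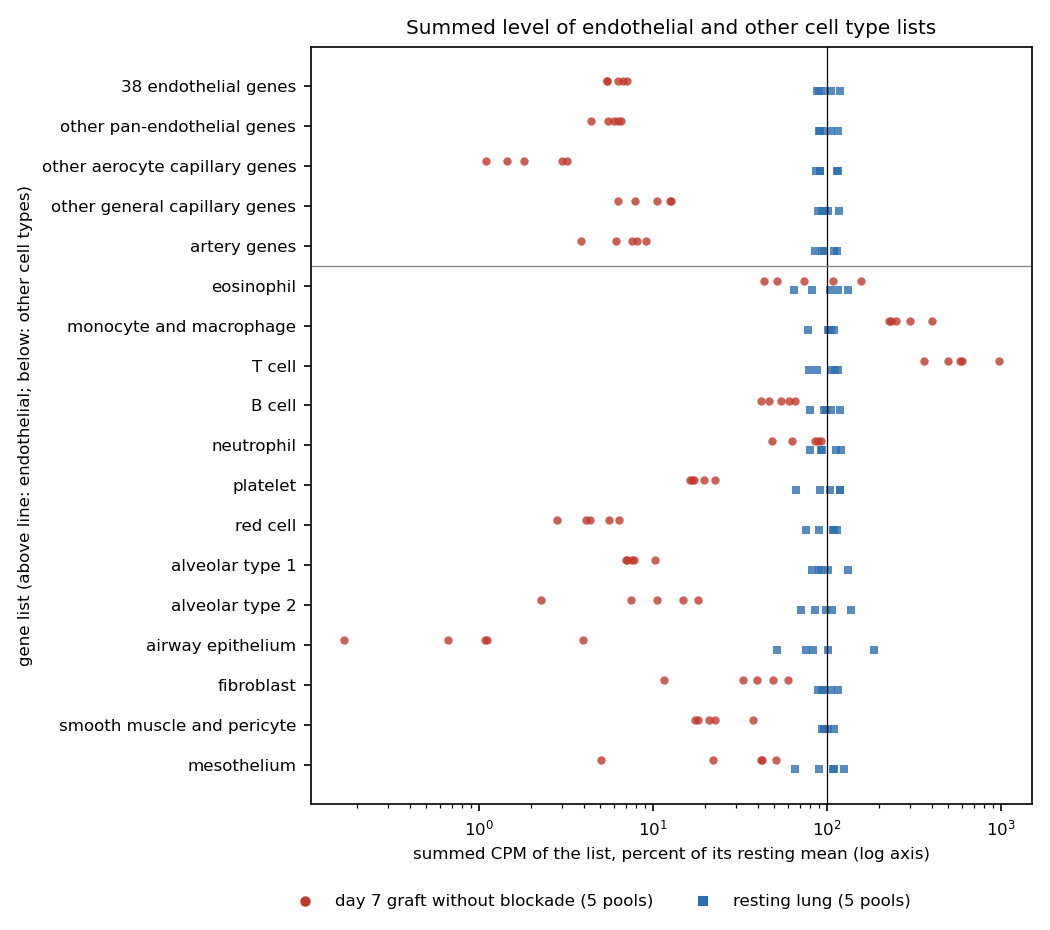
Summed CPM of the 38 endothelial genes, of other endothelial lists and of marker lists of other cell types, as a percentage of the resting mean (log axis), in each day 7 graft pool and each resting lung pool. The endothelial, red cell and alveolar type 1 sums of the day 7 pools lie well below those of the resting pools, the eosinophil sums overlap, and the monocyte and T cell sums lie above.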

How the data were processed

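RNA was sequenced from eosinophils sorted from pooled mouse lungs. The authors deposited whole-number counts per Ensembl gene for 49315 genes in 2 tables, which were joined by identifier. The submitters' processing notes name STAR 2.5.2b, Trimmomatic 0.36, bcl2fastq 2.17, and Subread 1.5.2 with featureCounts, on build mm10. Their settings, strandedness and annotation release were not given in the sources used here. A set of 10 columns whose bare numbers could be tied to no sample stayed out of every step. Symbols, spans and exon lengths came from GENCODE M21.

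Counts were filtered by group and tested with edgeR 4.0.16 (TMM scaling, quasi-likelihood test, group as the only term, Benjamini-Hochberg threshold 0.05) in R 4.3.3. CPM uses TMM-scaled totals and RPKM divides it by exon length. A standard error is the size of the fold change over the root of its F statistic. Relative fits used the Cdh5 count plus 0.5 as offset. The test was checked on simulated data. Cdh5 was left unchanged there, so the check did not cover a denominator as scarce as in the day 7 grafts. Pools of a group are the replicates; whether pools came from separate experiments is not stated, and the p-values therefore cover only the variation between pools, which may be technical. No libraries of a group agreed within sampling noise (chi-square per degree of freedom 5.95 or more).

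Values in every pool are given for the 2 genes of each role with the highest mean RPKM and for the 3 largest and 3 smallest fold changes, and up to 4 genes of each context list by mean CPM are named. Cdh5, Epx, Prg3, Procr, Bmp4, Bmp6 and the genes given by their means were named after their values were seen. The members, lists and tests were chosen with earlier results of these data known. Alternatives were DESeq2 1.42.0, other filters and scalings, a replicate block, other denominators and leaving out each pool.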

Additional observations from a re-analysis of the deposited data

Results flagged for a closer look

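A pool that stood apart from the other 4 of its group was found in 6 of 76 gene and group combinations, where chance gives about 1 in 20, by the gap to the nearest pool as a share of the range (Dixon's limit 0.71). In the day 7 grafts these were Car4 in pool 5, at 48.7 CPM, above the other pools, and Ephb4 in pool 2, at 0.110 CPM, below them. That Ephb4 value is 2 counts, under the floor of 3 counts. In resting lung all were high values in pool 1, namely Calcrl at 918 CPM, Cav2 at 453 CPM, Clec14a at 212 CPM and Apln at 40.8 CPM. That pool was the highest of its group for 27 of the 38 genes, so the 76 combinations are not separate trials.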

How the results depend on the processing

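The 38 endothelial genes were lower, and 0 higher, in the day 7 grafts under each alternative run: DESeq2, size factors of DESeq2 in edgeR, library totals alone, no filter, a stricter filter, a replicate block and leaving out each pool. Over all genes, the number higher was 2521 with library totals alone, which shifted the median of all genes by -0.19 on the log2 scale. The number lower was 6216 with DESeq2 and 6715 with no filter. Both of these runs took every gene with a count, a larger set than the main run tested. Their median log2 fold changes over all genes were -0.63 and -0.46, against 0.05 in the main run. Leaving out each pool gave 3669 to 4020 genes lower and 3507 to 3976 higher. The comparison relative to Cdh5 was less stable. Of 37 genes, 2 were lower with Tie1 as denominator, 2 with the sum of Cdh5, Tie1, Tek and Robo4, 2 with no filter and 8 with a replicate block. Leaving out a pool gave 2 to 10 lower and 14 to 18 higher, with 10 lower without day 7 pool 2 and 2 lower without day 7 pool 1 or any resting pool. Over all alternatives, other denominators included, the number higher relative to Cdh5 ran from 14 to 22. Kdr, Tek and Ramp2 were among the calls lost. With Tie1 as denominator the sign turned for Aplnr (0.92), Cldn5 (0.69), Clec14a (0.084), Ephb4 (0.13), Erg (0.88), Gpihbp1 (0.88), Ramp2 (0.055), Slc9a3r2 (0.57), Sox18 (0.10) and Sox7 (0.37), since Tie1 fell more than Cdh5. With the summed denominator it turned for Aplnr (0.44), Cldn5 (0.19), Erg (0.45), Gpihbp1 (0.37) and Slc9a3r2 (0.10). When each pool was left out, Aplnr ranged from -0.41 to 0.16, Calcrl from -0.0089 to 0.52 and Erg from -0.32 to 0.10. Apart from that denominator the cause was not tested. Same-numbered pools of both groups did not deviate together (correlations 0.12, 0.00, -0.11, -0.19 and 0.09). Whether they were handled together cannot be read from these correlations, and the replicate block left 38 genes lower. Depth limits the day 7 values of Sox17 and Npr3, which lie near or under 3 counts in most day 7 pools.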
